A study of Saccharomyces cerevisiae with 8 samples.

Results

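The 41 nuclear genes described here encode parts of the mitochondrial respiratory chain and the ATP synthase of the yeast Saccharomyces cerevisiae, with 1 regulator of these genes. They were chosen by name from the 7127 genes of the count table: 3 NADH dehydrogenases, 4 subunits of complex II, 9 of complex III, 2 isoforms of cytochrome c, 9 subunits of complex IV, 13 of complex V and HAP4. All 41 were found and all 41 passed the filter on low counts, which kept 5430 genes. RNA was sequenced in 8 libraries, 2 for each of 4 groups. CRN/PPN2 and its parent CRN were both grown in YPD, a rich glucose medium, with 20 mM KOH for 25 h (CRN/PPN2) or 40 h (CRN), or without KOH for 16 h. CRN is a MATa strain with ade2, his3 and ura3 alleles and a ppn1 deletion marked with CgTRP1, so every library lacks the polyphosphatase Ppn1. CRN/PPN2 carries in addition the plasmid pMB1, a centromeric pRS316 derivative in which the constitutive TDH3 promoter drives PPN2, a second polyphosphatase, and the vector marker is URA3. Cells were taken late in logarithmic growth. Only CRN/PPN2 +KOH cells went straight into Trizol LS, and a French press opened the frozen cells of the other groups. The paper's growth methods say that CRN/PPN2 +KOH cells lysed in distilled water and were washed with sorbitol added. Its RNA methods name water washes only. Culture time cannot be told apart from KOH in either strain. Nor can washing, lysis and depth from strain and medium wherever the CRN/PPN2 +KOH libraries enter. The libraries of a group come from separate preparation and sequencing batches. The spread behind the p-value of a gene is shared by all 4 groups, with only 2 samples each, and is drawn toward that of other genes. This spread may be technical.

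Electrons enter the yeast chain through single-subunit NADH dehydrogenases, Ndi1 on the matrix side and Nde1 and Nde2 on the outer side of the inner membrane, and through complex II, the succinate dehydrogenase. Ubiquinone carries them to complex III, cytochrome c to complex IV, and complex IV to oxygen. Complexes III and IV move protons, and complex V, the ATP synthase, lets the protons return and makes ATP. Baker's yeast has no proton-pumping complex I. On glucose yeast represses many of these genes, and the Hap2/3/4/5 complex, whose Hap4 subunit brings the activating domain, turns them on in respiring cells. Cytochrome c and subunit 5 of complex IV each come in a pair of isoforms: CYC1 and COX5A are the ones used with ample oxygen and heme, and CYC7 and COX5B those used with little of either.

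The motif of Hap2/3/4/5 is shown first because it is the best known element shared by such genes. Its letters ACCAATNA were searched on both strands of the 500 bases before each coding start in the R64 assembly, a window that can include transcribed bases. They occurred before 19 of the 41 members (46.3%) and before 513 of 5987 nuclear protein-coding genes (8.57%). By group they occurred before 2 of 3 NADH dehydrogenases, 1 of 4 complex II, 3 of 9 complex III, 5 of 9 complex IV and 7 of 13 complex V genes. Neither cytochrome c gene held these letters in the window. The Hap1 motif occurred before 1 member, QCR6 (2.44% of members and 0.351% of all genes), and the short Rox1 core ATTGTT before 56.1% of members and 48.9% of all genes. The sites of some genes whose values follow are shown 5′ to 3′ on the strand of the match, with the match in capitals. They lie at chrXIII:556560-556589 (NDE1), chrII:135849-135878 (COR1), chrV:107001-107030 (RIP1), chrIX:155138-155167 (COX5B), chrXI:408149-408178 (ATP7), chrXVI:29934-29963 (ATP15), chrIV:1112420-1112449 (TIM11) and chrXI:232121-232150 (HAP4), and those of TIM11 and HAP4 are on the strand opposite to the gene. NDE1 held another match, 2 bases before its coding start, which is not shown.
NDE1: tattctggtaaACCAATTAaagagagaaaa
COR1: acgctttctgcACCAATGAaatgccaataa
RIP1: ctccataacggACCAATCAgcgttttgcgc
COX5B: ttaaacaatagACCAATTAtttcaatttaa
ATP7: gtaaaagatacACCAATTAccacttgctgc
ATP15: cttttatacgaACCAATGAaatttgatcct
TIM11: tggctccgcggACCAATTAgcgtggagatt
HAP4: tgtactaggagACCAATAAatatgtgtgga

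The libraries matched their strain labels, and the medium labels were not checked in this way. PPN2 was at 5997 to 6854 CPM in the 4 CRN/PPN2 libraries and at 206 to 220.0 CPM in the 4 CRN libraries, and PPN1 had at most 1 count anywhere. CPM are counts divided by the library total and scaled with TMM factors, which even out differences in RNA makeup between libraries. Total counts were 796548 and 1559324 in the CRN/PPN2 +KOH libraries, against 3844316 to 5004823 in the other 6, so 1 count was worth 0.641 and 1.26 CPM there and 0.200 to 0.260 CPM elsewhere. The RNA was selected by poly(A), and the 7 mitochondrially encoded subunit genes of complexes III, IV and V had 0 counts in all libraries, so only the nuclear share of each complex was measured. Levels are shares of each library's counts, and fewer transcripts per cell and more of other RNA cannot be told apart.

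The members took 0.731 and 0.698% of all counts in CRN/PPN2 +KOH, 0.653% in both CRN/PPN2 YPD libraries, 0.439 and 0.433% in CRN +KOH, and 0.549 and 0.548% in CRN YPD. Replicates of a group lay close together and the 4 groups did not overlap. These shares weigh abundant members most. The members summed to 7211 and 6588 CPM in CRN/PPN2 +KOH, with CYC7 at 671 and 589 and NDE1 at 703 and 932. In CRN/PPN2 YPD they summed to 6346 and 6410 CPM, with CYC7 at 144 and 122 and NDE1 at 405 and 471. Between these groups 11 members were called higher with KOH and 16 lower. Per kilobase of coding sequence the highest mean level in CRN YPD belonged to QCR6, an acidic subunit of complex III, at 905 CPM per kb, followed by CYC1 at 779. In CRN/PPN2 +KOH it belonged to CYC7 at 1842 CPM per kb, followed by COX7 at 1137. NDE2 was the lowest member in all 4 groups, at 13.4 CPM per kb in CRN/PPN2 +KOH, 6.17 in CRN/PPN2 YPD, 2.12 in CRN +KOH and 3.40 in CRN YPD.

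**Figure D1:**
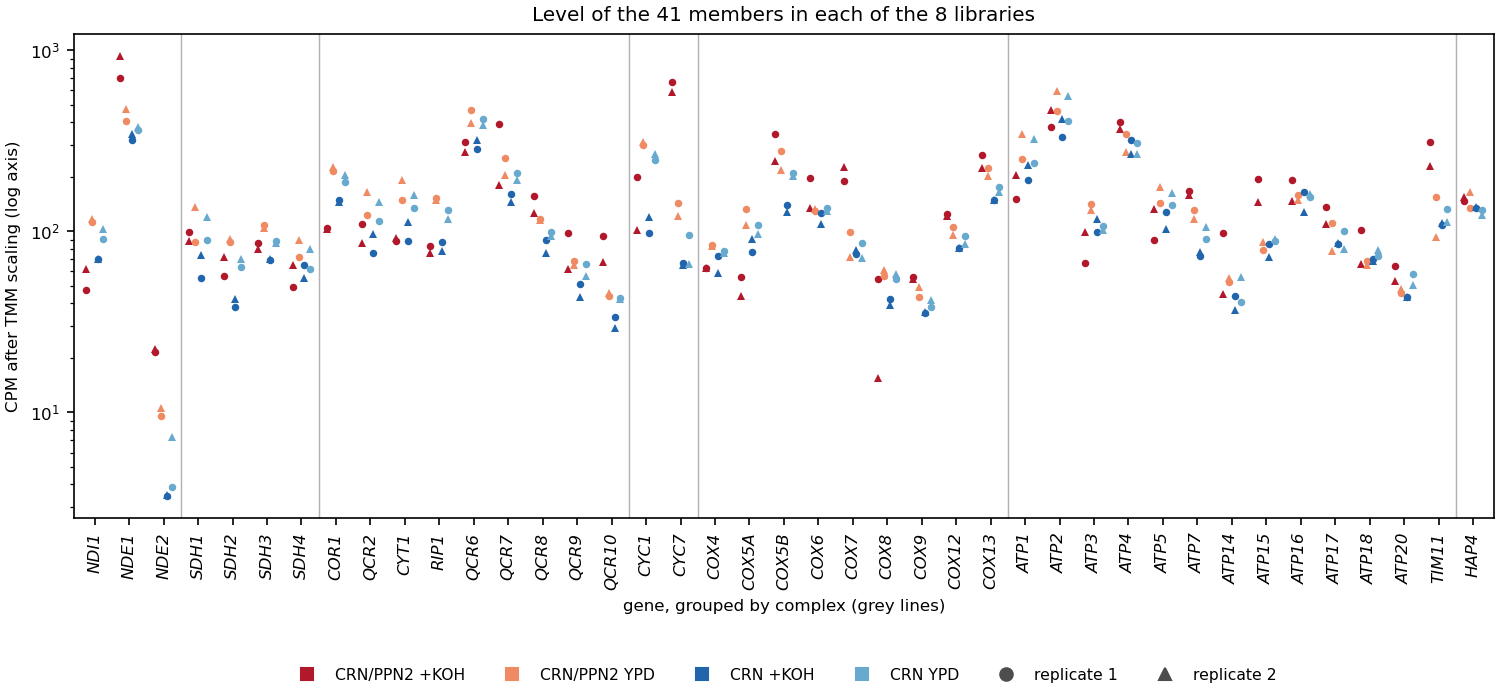
TMM-scaled CPM of each member (vertical log axis) in each library, grouped by complex along the horizontal axis. Colours mark the 4 groups and shapes the replicate. CYC7 stands at 671 and 589 CPM in CRN/PPN2 +KOH, above its values in the other 6 libraries, and COX8 has 1 low CRN/PPN2 +KOH library at 15.4 CPM.

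The first comparison asks what differed with KOH in the parent strain. In CRN, 12 of 41 members were lower with KOH and none higher at a Benjamini-Hochberg adjusted p under 0.05 in edgeR, against 7.61% of all tested genes lower and 7.53% higher (15.1% in either direction). The member median log2 fold change was -0.32, against 0.01 over all tested genes, and 38 of 41 values were negative. The lower members came from every complex: NDI1, SDH1 and SDH2, COR1, QCR2, CYT1, RIP1 and QCR6, CYC1, COX5B, ATP1 and ATP7. In complex II they were the flavoprotein and iron-sulfur subunits, and in complex III both core proteins, cytochrome c1, the Rieske protein and an acidic subunit. Of complex IV 8 of 9 genes and of complex V 11 of 13 were not called. Within the batches, the member median was -0.30 in replicate 1 and -0.37 in replicate 2, and 33 members were negative in both. The calls depended on single libraries: without a single CRN library 5 (YPD replicate 1), 3 (YPD replicate 2), 4 (+KOH replicate 1) or 1 (+KOH replicate 2) members were called, and without either or both of the CRN/PPN2 +KOH libraries, which enter only through the shared spread, 19 (26.1% of all tested genes were called without both). Of the 12, CYC1 alone kept its call under every alternative tried.

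In CRN/PPN2 the members went both ways. With KOH 11 were higher and 16 lower, 65.9% of the members, against 29.2% of all tested genes higher and 25.5% lower (54.7% in either direction). The called share was near that of all tested genes. The member median was 0.21, against -0.01 over all tested genes, but it was 0.22 in replicate 1 and -0.09 in replicate 2, and upper quartile factors gave 7 higher and 17 lower. Without CRN/PPN2 YPD replicate 2, 17 members were called. There were 9 members lower with KOH in both strains: NDI1, SDH2, COR1, QCR2, CYT1, RIP1, QCR6, CYC1 and ATP1. Another 10 were higher in CRN/PPN2 and not called in CRN: NDE1, NDE2, QCR10, CYC7, COX6, COX7, ATP4, ATP15, ATP17 and TIM11. NDE2, at 9.60 and 10.6 CPM in CRN/PPN2 YPD, passed the filter on low counts only with the CRN/PPN2 +KOH libraries. Its rise with KOH is thus a description and gives no support. A further 7 were lower in CRN/PPN2 and not called in CRN (SDH3, SDH4, COX4, COX5A, ATP2, ATP3 and ATP5). ATP7 was lower in CRN and higher in CRN/PPN2, SDH1 and COX5B were lower in CRN and not called in CRN/PPN2, and 12 were called in neither strain. Of all tested genes 3.89% were lower in both strains, 23.8% higher in CRN/PPN2 and not called in CRN, 20.9% lower in CRN/PPN2 and not called in CRN, and 40.1% called in neither, against 22% (lower in both), 24.4%, 17.1% and 29.3% of the members. The KOH difference itself differed between the strains for 18 members (14 higher and 4 lower in CRN/PPN2, NDE2 among the higher ones though it passed the filter through CRN/PPN2 alone), 43.9% of them, against 39.7% of all tested genes, 22.2% higher and 17.6% lower. That count was 11 without CRN YPD replicate 2, CRN +KOH replicate 1 or CRN/PPN2 YPD replicate 1, and 12 without CRN/PPN2 +KOH replicate 1.

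**Figure D2:**
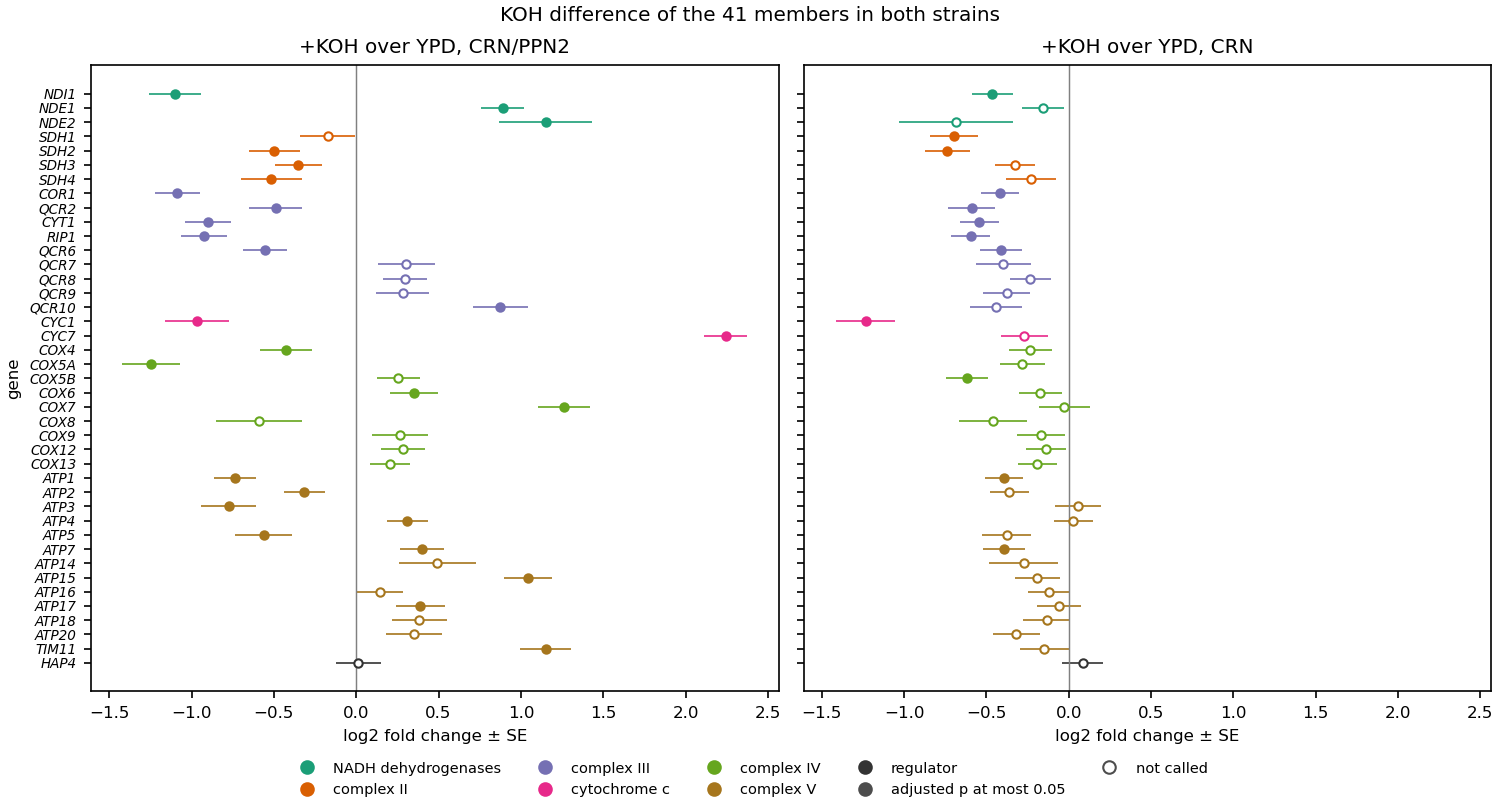
Log2 fold change of +KOH over YPD with its SE (horizontal axis) for each member, in CRN/PPN2 (left) and CRN (right). Colours mark the complexes, and filled points have an adjusted p under 0.05. In CRN 38 of 41 points lie left of 0, and in CRN/PPN2 they spread from -1.24 (COX5A) to 2.24 (CYC7).

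Summed levels of each complex were lower with KOH in CRN and went both ways in CRN/PPN2. In CRN +KOH the sum of every complex was below that of CRN YPD, from 165 and 185 CPM against 343 and 333 CPM for cytochrome c to 1745 and 1756 CPM against 1935 and 2148 CPM for complex V. In CRN/PPN2 +KOH cytochrome c summed to 869 and 691 CPM, against 444 and 433 CPM in CRN/PPN2 YPD, and the NADH dehydrogenases to 772 and 1016 CPM, against 527 and 598 CPM. Complex II summed to 291 and 306 CPM in CRN/PPN2 +KOH, against 355 and 421 CPM in CRN/PPN2 YPD. Complex III summed to 1434 and 1066 CPM in CRN/PPN2 +KOH and 1592 and 1559 CPM in CRN/PPN2 YPD, so its replicates with KOH stood further apart than in YPD. These sums weigh abundant members most, and they carry no test.

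**Figure D3:**
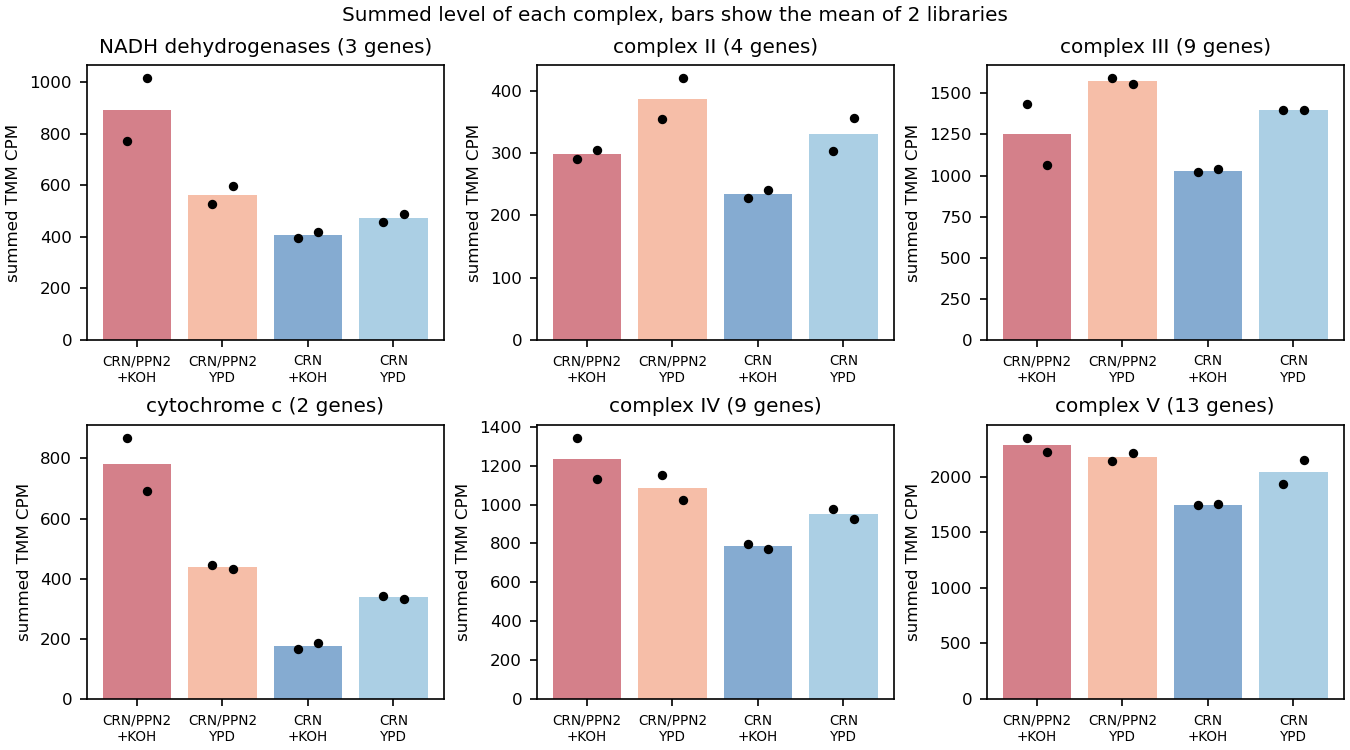
Summed TMM-scaled CPM of the members of each complex (vertical axes start at 0) in the 4 groups. Points are single libraries and bars their mean. The cytochrome c sum is highest in CRN/PPN2 +KOH and lowest in CRN +KOH, at 165 and 185 CPM.

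The strains were compared next, in each medium. With KOH 23 members stood higher in CRN/PPN2 than in CRN and 3 lower (63.4%), against 30.8% of all tested genes on the higher side and 25.9% on the lower (56.7% together). NDE2, among the 23, passed the filter on low counts through CRN/PPN2 alone and gives no support. The member median was 0.51 (0.57 in replicate 1 and 0.30 in replicate 2), against 0.03 over all tested genes, and the calls came to 17 without CRN/PPN2 +KOH replicate 1. With coding length taken out as an offset, an alternative added after seeing the data, the median was 0.19 with 16 members higher and 4 lower, and 7 of the 26 calls were lost. In YPD only CYC7 was called, 2.44% of the members, against 6.5% of all tested genes (4.13% higher and 2.38% lower). In YPD 35 of 41 values were positive, with a median of 0.17 (0.18 in replicate 1 and 0.15 in replicate 2), against 2773 of 5430 positive and a median of 0.01 over all tested genes. An unadjusted p under 0.05 in YPD was found for 9 members and for 1062 of all 5430 tested genes. Without both CRN/PPN2 +KOH libraries 6 members were called in YPD, against 15% of all tested genes. The comparisons share groups, so their values for a gene are not independent of each other.

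Among the dehydrogenases, the inner and the outer enzymes parted. NDI1 (YML120C, chrXIII:28266-29807), the matrix-facing enzyme, was at 47.4 and 61.7 CPM in CRN/PPN2 +KOH and 113 and 116 CPM in CRN/PPN2 YPD. It was at 70.2 CPM in both CRN +KOH libraries and 90.5 and 103 CPM in CRN YPD. For NDI1, KOH libraries were below YPD libraries in both strains without overlap. This adds no support, as NDI1 was given in full because it was called. Its log2 fold change with KOH was -1.10 ± 0.16 (SE) in CRN/PPN2 (edgeR adjusted p = 1.57e-05) and -0.46 ± 0.13 in CRN (0.0181), where the call ended without any single CRN library. NDE1 (YMR145C, chrXIII:554793-556475), the main external enzyme, stood at 703 and 932 CPM in CRN/PPN2 +KOH, against 405 and 471 CPM in CRN/PPN2 YPD. In CRN it was at 321 and 345 CPM with KOH and 364 and 376 CPM in YPD. It rose by 0.89 ± 0.13 in CRN/PPN2 with KOH (edgeR adjusted p = 1.84e-05), and the strain difference with KOH was 1.28 ± 0.13 (2.87e-07). NDE2 (YDL085W, chrIV:303211-304848), its paralog, was at 21.5 and 22.5 CPM in CRN/PPN2 +KOH, 9.60 and 10.6 CPM in CRN/PPN2 YPD, 3.45 and 3.51 CPM in CRN +KOH and 3.86 and 7.29 CPM in CRN YPD. It passed the filter of 10 CPM in 2 libraries through CRN/PPN2 alone, so its strain difference of 2.69 ± 0.34 with KOH is a description and no support. The longest stretch of identical letters between the aligned NDE1 and NDE2 coding sequences was 11 bases.

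Complex II members were lower with KOH or not called. SDH2, the iron-sulfur subunit (YLL041C, chrXII:53131-53931), was at 56.3 and 72.3 CPM in CRN/PPN2 +KOH, 87.6 and 90.6 CPM in CRN/PPN2 YPD, 38.3 and 42.3 CPM in CRN +KOH and 63.9 and 70.4 CPM in CRN YPD. It fell with KOH by 0.50 on the log2 scale in CRN/PPN2 (edgeR adjusted p = 0.0112) and by 0.74 in CRN (0.00102). The first call ended without CRN/PPN2 +KOH replicate 1 or CRN/PPN2 YPD replicate 1, the second without CRN +KOH replicate 2. The flavoprotein gene SDH1 (YKL148C, chrXI:169207-171129) fell in CRN, to 55.5 and 74.1 CPM with KOH, against 89.8 and 120.3 CPM in YPD (log2 -0.70 ± 0.15, edgeR adjusted p = 0.00316), a call that ended without either CRN +KOH library or CRN YPD replicate 2. It was at 99.3 and 88.9 CPM in CRN/PPN2 +KOH and 87.4 and 137 CPM in CRN/PPN2 YPD, which overlap (log2 -0.17, not called). Its strain difference with KOH, 0.61 ± 0.17, lost its call when either CRN +KOH library or CRN/PPN2 +KOH replicate 1 was left out. The membrane anchors SDH3 and SDH4 were lower in CRN/PPN2 +KOH than in CRN/PPN2 YPD by 0.35 and 0.52, calls that ended without any single library (SDH3) or without CRN/PPN2 +KOH replicate 1 or CRN/PPN2 YPD replicate 2 (SDH4). No complex II member was called for a difference between the strains in the KOH effect (adjusted p 0.0706 or more). Outside the members, the SDH1 paralog SDH9 stood at 87.3 and 123 CPM in CRN/PPN2 +KOH, 17.6 and 13.7 CPM in CRN/PPN2 YPD, 3.99 and 6.58 CPM in CRN +KOH and 12.7 and 12.8 CPM in CRN YPD (strain difference with KOH 4.25 ± 0.25). Identical stretches between SDH1 and SDH9 reached 23 bases.

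In complex III the core and redox subunits fell with KOH, and QCR10 rose in CRN/PPN2, a call that ended when coding length was taken out. COR1 (YBL045C, chrII:134143-135516), a core subunit, was at 104 and 103 CPM in CRN/PPN2 +KOH and 215 and 227 CPM in CRN/PPN2 YPD, and at 149 and 145 CPM in CRN +KOH and 186 and 206 CPM in CRN YPD. It fell with KOH by 1.09 in CRN/PPN2 (edgeR adjusted p = 2.95e-06) and by 0.42 in CRN (0.0193). CYT1, cytochrome c1 (YOR065W, chrXV:447439-448368), was at 87.9 and 91.3 CPM in CRN/PPN2 +KOH, 149.8 and 191 CPM in CRN/PPN2 YPD, 88.5 and 112 CPM in CRN +KOH and 134 and 158 CPM in CRN YPD. RIP1, the Rieske iron-sulfur protein (YEL024W, chrV:107260-107907), was at 82.9 and 75.9 CPM in CRN/PPN2 +KOH, 152 and 149 CPM in CRN/PPN2 YPD, 87.7 and 77.4 CPM in CRN +KOH and 132 and 118 CPM in CRN YPD. For all 3 genes KOH libraries were below YPD libraries within each strain. They were given in full as called genes with large fold changes, so this separation adds no support. The log2 fold changes with KOH of CYT1 and RIP1 were -0.90 ± 0.14 and -0.92 ± 0.14 in CRN/PPN2 and -0.54 ± 0.12 and -0.60 ± 0.12 in CRN, all called. The CRN calls of COR1 and CYT1 ended without any single CRN library, and that of RIP1 without CRN YPD replicate 1 or CRN +KOH replicate 2. QCR10 (YHR001W-A, chrVIII:107826-108122), a small subunit, went the other way in CRN/PPN2. It was at 93.6 and 67.6 CPM in CRN/PPN2 +KOH, 43.7 and 45.9 CPM in CRN/PPN2 YPD, 33.5 and 29.2 CPM in CRN +KOH and 42.7 and 42.2 CPM in CRN YPD. Its KOH log2 fold change was 0.88 ± 0.17 in CRN/PPN2 (edgeR adjusted p = 0.000264) and -0.44 ± 0.16 in CRN, which was not called (0.0683). The small subunits QCR7, QCR8 and QCR9 had KOH log2 fold changes of 0.28 to 0.30 in CRN/PPN2, none called, and were higher than in CRN with KOH by 0.88, 0.80 and 0.79, though the calls of QCR7 and QCR9 ended without CRN/PPN2 +KOH replicate 1.

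CYC7 overtook CYC1 in CRN/PPN2 +KOH. CYC1 (YJR048W, chrX:526335-526664), the major isoform, was at 199 and 102 CPM in CRN/PPN2 +KOH, 300.3 and 311 CPM in CRN/PPN2 YPD, 98.3 and 119.7 CPM in CRN +KOH and 247 and 267 CPM in CRN YPD. It fell with KOH by 0.97 ± 0.19 in CRN/PPN2 (edgeR adjusted p = 0.000398) and by 1.23 ± 0.18 in CRN (8.82e-05). Its strain difference with KOH, 0.52 ± 0.20, was called (0.037) but was -0.16 without CRN/PPN2 +KOH replicate 1. CYC7 (YEL039C, chrV:79636-79977), the minor isoform, was at 671 and 589 CPM in CRN/PPN2 +KOH, 144 and 122 CPM in CRN/PPN2 YPD, 67 and 65.3 CPM in CRN +KOH and 95.7 and 65.8 CPM in CRN YPD. The CRN/PPN2 +KOH libraries stood above all others, and in CRN the groups overlapped. CYC7 was 4.73-fold higher with KOH in CRN/PPN2 (log2 2.24 ± 0.13, edgeR adjusted p = 2.25e-10) and 9.46-fold higher in CRN/PPN2 than in CRN with KOH (log2 3.24 ± 0.14, 4.26e-12). Its KOH log2 fold change of -0.27 ± 0.14 in CRN was not called (0.213), and the difference between the strains, 2.51 ± 0.19, was (4.48e-08). In YPD its strain difference of 0.73 ± 0.13 was called (0.00174), but the call ended without CRN YPD replicate 2 or without either CRN/PPN2 YPD library.

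Reads that fall within a run of bases identical in both isoforms could not be assigned to either. The aligned coding sequences were 74.3% identical for CYC1 and CYC7, with the longest identical run at 35 bases, and 64.7% identical for COX5A and COX5B, with the longest run at 12 bases. The most alike 60 bases of each pair are printed with differing bases in capitals, 4 in the cytochrome c pair (coding bases 214 to 273 of CYC1 and 226 to 285 of CYC7) and 8 in the subunit 5 pair (397 to 456 of COX5A and 391 to 450 of COX5B).
CYC1: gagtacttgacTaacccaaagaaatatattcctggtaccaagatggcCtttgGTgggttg
CYC7: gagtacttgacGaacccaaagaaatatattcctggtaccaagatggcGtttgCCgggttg
COX5A: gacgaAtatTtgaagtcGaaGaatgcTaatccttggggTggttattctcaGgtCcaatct
COX5B: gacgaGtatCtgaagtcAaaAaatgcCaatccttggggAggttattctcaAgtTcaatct

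The ratio of the isoforms within a library does not depend on scaling. The log2 ratio of CYC1 to CYC7 counts was -1.75 and -2.52 in CRN/PPN2 +KOH, 1.06 and 1.35 in CRN/PPN2 YPD, 0.55 and 0.87 in CRN +KOH and 1.37 and 2.02 in CRN YPD. CYC1 thus made up 22.9 and 14.8% of cytochrome c counts in CRN/PPN2 +KOH and 59.5 to 80.3% in the other 6 libraries. All 4 KOH libraries were below all 4 YPD libraries, with a mean difference of -2.16 (exact permutation test, two-sided, p = 0.0286, the smallest that 4 against 4 allows, and 0.0572 adjusted over the 2 pairs). That test exchanges libraries across strains and batches. Exchanging them only within strains gave an exact permutation p of 0.0556, and only within strains and batches 0.125, each the smallest possible and both added after seeing the data. Within a strain, 2 libraries against 2 cannot give a p below 0.333, and the differences were -3.34 in CRN/PPN2 and -0.98 in CRN. For COX5A to COX5B the log2 ratio was -2.62 and -2.47 in CRN/PPN2 +KOH, -1.06 and -1.02 in CRN/PPN2 YPD, -0.87 and -0.51 in CRN +KOH and -0.96 and -1.06 in CRN YPD. COX5B counts exceeded COX5A counts in all 8 libraries, in YPD as well. The difference between KOH and YPD libraries was -1.50 in CRN/PPN2 and 0.32 in CRN, and over both strains the libraries overlapped (difference -0.59, exact permutation test, two-sided, p = 0.429, also 0.429 when adjusted). Exchanged within strains, and within strains and batches, its exact permutation p was 0.333 and 0.5.

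**Figure D4:**
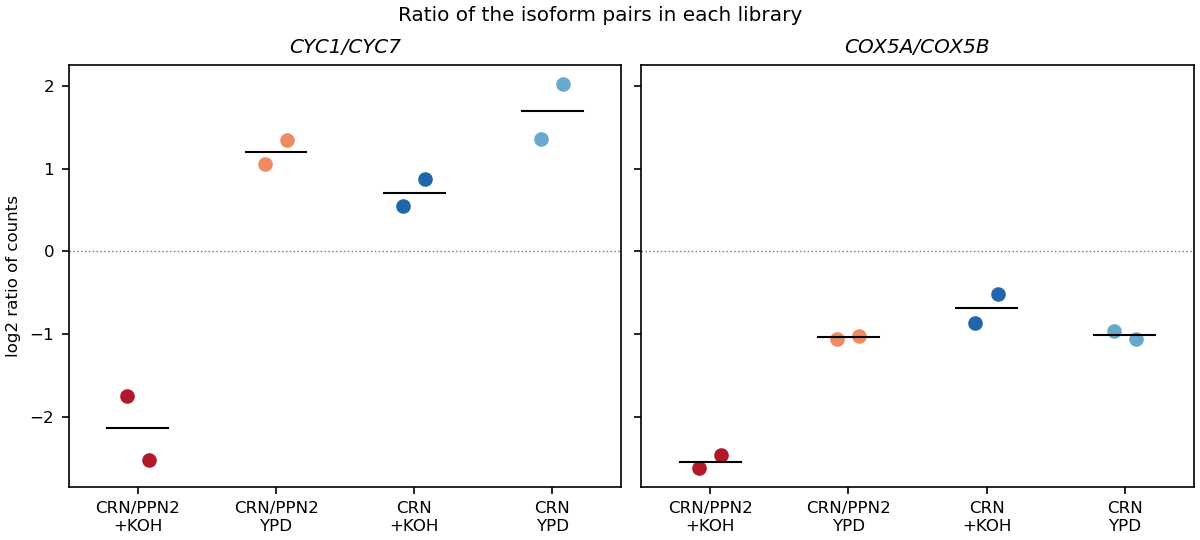
Log2 ratio of CYC1 to CYC7 counts (left) and of COX5A to COX5B counts (right) in each library of the 4 groups (points), with group means (lines). Above 0 the first gene of the pair has more counts. The CYC1 ratio crosses 0 in CRN/PPN2 +KOH alone, at -1.75 and -2.52, and the COX5A ratio is below 0 in every library.

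In complex IV, COX5A fell and COX7 rose with KOH in CRN/PPN2, and COX5B fell in CRN. COX5A (YNL052W, chrXIV:531725-532186) was at 55.7 and 43.9 CPM in CRN/PPN2 +KOH, 132 and 108 CPM in CRN/PPN2 YPD, 77.1 and 90.1 CPM in CRN +KOH and 108 and 96.5 CPM in CRN YPD. It fell with KOH by 1.24 ± 0.18 in CRN/PPN2 (edgeR adjusted p = 1.22e-05), and its -0.28 ± 0.14 in CRN was not called (0.178). COX5B (YIL111W, chrIX:155222-155765) was at 343 and 245 CPM in CRN/PPN2 +KOH, 276 and 219 CPM in CRN/PPN2 YPD, 141 and 128 CPM in CRN +KOH and 210.3 and 202 CPM in CRN YPD. Its KOH log2 fold change of 0.26 ± 0.13 in CRN/PPN2 was not called (0.107), and it fell by 0.62 ± 0.13 in CRN (0.00264), which was lost without either CRN +KOH library or CRN YPD replicate 2. With KOH the strains differed by -0.73 for COX5A and 1.13 for COX5B, and these calls held under every alternative tried. COX7, a small membrane subunit (YMR256C, chrXIII:778945-779127), was at 189 and 228 CPM in CRN/PPN2 +KOH, 99.3 and 72.2 CPM in CRN/PPN2 YPD, 74.7 and 78.9 CPM in CRN +KOH and 85.9 and 71.3 CPM in CRN YPD. It rose with KOH by 1.26 ± 0.16 in CRN/PPN2 (edgeR adjusted p = 3.25e-06), against -0.03 ± 0.15 in CRN. COX13 (YGL191W, chrVII:144808-145197), a nonessential peripheral subunit, was higher in CRN/PPN2 than in CRN with KOH by 0.71 ± 0.13, at 264 and 223 CPM in CRN/PPN2 +KOH against 149 and 148 CPM in CRN +KOH, and was at 223 and 201 CPM in CRN/PPN2 YPD and 175 and 165 CPM in CRN YPD. COX4, COX6, COX8, COX9 and COX12 had KOH log2 fold changes between -0.59 and 0.35 in CRN/PPN2, of which COX4 (-0.43) and COX6 (0.35) were called. Both calls ended without CRN/PPN2 +KOH replicate 1 or without either CRN/PPN2 YPD library, and that of COX6 also without any single CRN library. COX8 was at 54.4 and 15.4 CPM in CRN/PPN2 +KOH, from 86 and 13 counts, and was called in no comparison.

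In complex V ATP1, ATP2, ATP3 and ATP5 fell with KOH in CRN/PPN2, and ATP4, ATP7, ATP15, ATP17 and TIM11 rose. When coding length was taken out, ATP7 and ATP15 lost their calls and ATP17 was at -0.13, not called. TIM11, subunit e, which helps ATP synthase dimers form (YDR322C-A, chrIV:1112003-1112293), was at 313 and 229 CPM in CRN/PPN2 +KOH, 154 and 93.0 CPM in CRN/PPN2 YPD, 108 and 112 CPM in CRN +KOH and 133 and 113 CPM in CRN YPD. ATP15, subunit epsilon of the rotor stalk (YPL271W, chrXVI:30079-30267), was at 194 and 146 CPM in CRN/PPN2 +KOH, 79.3 and 87.3 CPM in CRN/PPN2 YPD, 85.6 and 72.4 CPM in CRN +KOH and 88.4 and 91.0 CPM in CRN YPD. Both rose with KOH in CRN/PPN2, by 1.15 ± 0.16 (edgeR adjusted p = 7.34e-06) and 1.04 ± 0.15 (1.23e-05), and were not called in CRN (-0.15 and -0.19). ATP7, subunit d of the stator (YKL016C, chrXI:407465-407989), was at 168 and 158 CPM in CRN/PPN2 +KOH, 131 and 117 CPM in CRN/PPN2 YPD, 72.8 and 76.7 CPM in CRN +KOH and 91.2 and 106 CPM in CRN YPD. Its strain difference with KOH, 1.13 ± 0.14 (edgeR adjusted p = 2.95e-06), held under every alternative tried. Its KOH log2 fold changes, 0.40 ± 0.13 in CRN/PPN2 and -0.39 ± 0.13 in CRN, were called, but the first was lost without CRN/PPN2 +KOH replicate 1 or CRN/PPN2 YPD replicate 2 and the second without any single CRN library or either CRN/PPN2 YPD library. ATP14, subunit h (YLR295C, chrXII:721999-722373), was at 97.4 and 45.1 CPM in CRN/PPN2 +KOH against 43.8 and 36.6 CPM in CRN +KOH, a difference of 0.92 ± 0.24 whose call ended without CRN/PPN2 +KOH replicate 1 or CRN +KOH replicate 2, and was at 52.5 and 55.3 CPM in CRN/PPN2 YPD and 40.9 and 55.6 CPM in CRN YPD. The dubious open reading frame YLR294C overlaps ATP14 and had 70 to 222 counts, and reads falling on both cannot be told apart. The genes ATP1, ATP2 and ATP3, which encode subunits alpha, beta and gamma, fell with KOH in CRN/PPN2 by 0.74, 0.32 and 0.77. ATP5 fell there by 0.56 (edgeR adjusted p = 0.0108). The call of ATP2 ended without any single CRN library or either CRN/PPN2 YPD library, and that of ATP3 without CRN/PPN2 +KOH replicate 1. Of these genes, ATP1 also fell in CRN (by 0.39, a call lost without any single CRN library). ATP2 (-0.36), ATP3 (0.06) and ATP5 (-0.38) were not called in CRN. ATP16 and ATP18 were called in no comparison.

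The KOH differences went with coding length, a property that the choice of members did not use. Of the 29 members with at most 750 coding bases, 9 were higher and 8 lower with KOH in CRN/PPN2, and of the 12 longer ones 2 were higher (NDE1 and NDE2) and 8 lower. NDE2 passed the filter on low counts only with the CRN/PPN2 +KOH libraries, so it gives no support. Of all tested genes up to 300 bases, 61.1% were higher and 8.57% lower. These shares were 48 and 12.6% from 300 to 450 bases and 36.8 and 21% from 450 to 750. Between 750 and 3000 bases the classes had 23.1 to 24.9% higher and 25.3 to 32.3% lower. Across the 41 members Spearman's rho of coding length with the KOH log2 fold change was -0.43 in CRN/PPN2 and -0.27 in CRN, a description over genes that share 8 libraries. Over all tested genes with a length it was -0.12 in CRN/PPN2 and -0.17 in CRN. Genes of at most 300 bases had a median of 0.70 in CRN/PPN2, with 61.1% higher, and those of 750 to 1200 bases a median of -0.11, while in CRN the same classes had medians of 0.08 and 0.04. The 10 members of at most 300 bases had a median of 0.34 in CRN/PPN2, 4 of them higher. Members of 450 to 750 bases had a median of -0.39 there, against 0.16 over all tested genes of that class. The CRN/PPN2 +KOH libraries were also the 2 shallowest and the 2 lysed at once, and the part of either in the length trend was not tested. When each library's length curve was taken out as an offset, an alternative added after seeing the data, 6 members were higher and 20 lower with KOH in CRN/PPN2, in place of 11 and 16, and the member median was -0.26. Of all 5430 tested genes 1552 were then higher and 1474 lower. The rises of NDE1, CYC7, COX7 and TIM11 and the falls of NDI1, COR1, CYT1, RIP1, CYC1, COX5A and ATP1 kept their calls. Among the other rises, QCR10, ATP7 and ATP15 lost theirs, and ATP17 was at -0.13, not called. In CRN the same offset gave 21 members lower and none higher, against 484 lower and 552 higher of all tested genes.

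**Figure D5:**
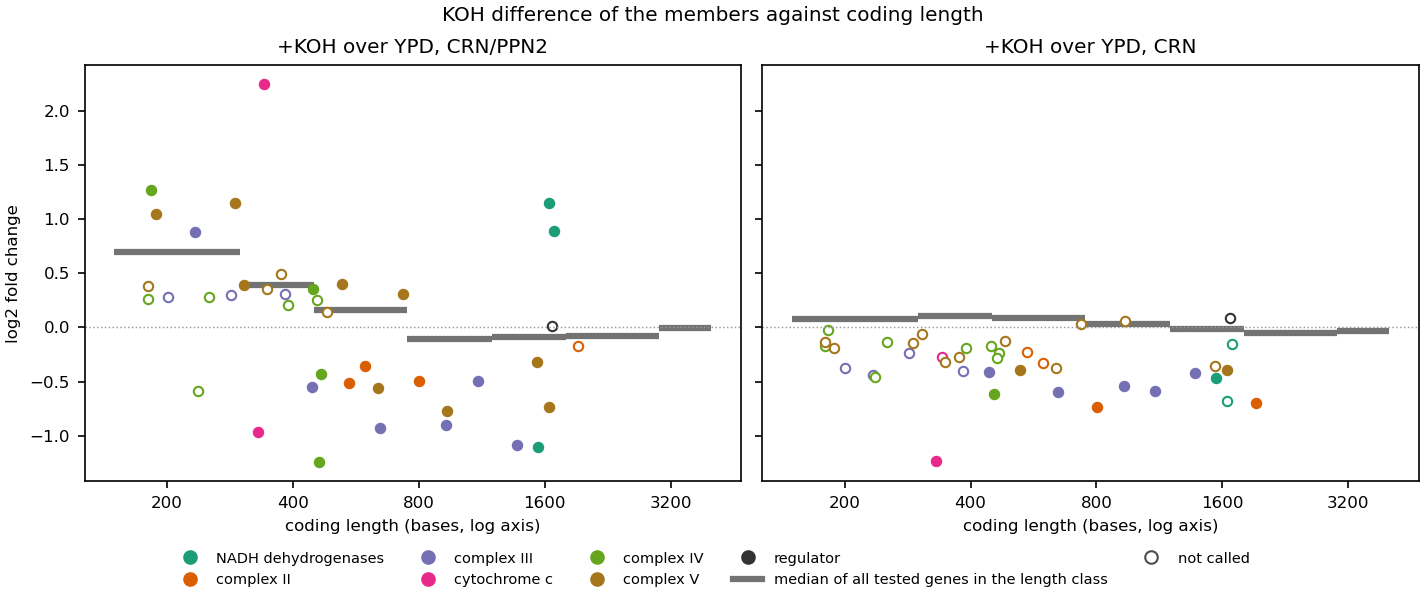
Log2 fold change of +KOH over YPD (vertical axis) against coding length in bases (horizontal log axis) for each member, in CRN/PPN2 (left) and CRN (right). Grey bars are medians of all tested genes in a length class. In CRN/PPN2 the bar of the shortest class stands at 0.70, in CRN at 0.08.

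HAP4 (YKL109W, chrXI:232227-233891), the activating subunit, was called in no comparison. It was at 147 and 155 CPM in CRN/PPN2 +KOH, 135 and 166 CPM in CRN/PPN2 YPD, 134 and 136 CPM in CRN +KOH and 131 and 123 CPM in CRN YPD. Its log2 fold changes ranged from 0.01 to 0.24 in the 4 group comparisons, each with an SE of 0.12 to 0.14, and none was called. A p that misses the threshold does not show that HAP4 RNA was equal. Of its 5 partner and heme or oxygen regulator genes, 1 rose and 2 fell with KOH in CRN/PPN2 (1 and 3 between the strains with KOH). The gene that rose was HAP1, at 76.5 and 115 CPM in CRN/PPN2 +KOH against 61.5 and 74.0 CPM in CRN/PPN2 YPD. HAP2, a DNA-binding subunit, was at 12.7 and 10.7 CPM in CRN/PPN2 +KOH against 21.7 and 26.5 CPM in CRN/PPN2 YPD. Its CRN/PPN2 +KOH levels rest on 20 and 9 counts. ROX1, the repressor of hypoxic genes such as CYC7 and COX5B, was at 38.6 and 47.4 CPM in CRN/PPN2 +KOH against 78.0 and 101 CPM in CRN/PPN2 YPD. The core ATTGTT had 0 matches in the searched window before CYC7 and 3 before COX5B. A link between ROX1 and either gene was not tested. The 19 members with ACCAATNA had a KOH median of 0.28 in CRN/PPN2 (7 higher, 4 lower), and the 22 without it a median of -0.33 (4 higher, 12 lower), given as a description. In CRN the medians were -0.19 and -0.34, with 6 lower in each set.

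Other genes of the pathway were taken from lists drawn up by function. Of the 4 other dehydrogenases that feed the chain, 4 were higher in CRN/PPN2 than in CRN with KOH and 3 in YPD, and 3 were lower with KOH in CRN. CYB2, the lactate dehydrogenase that passes electrons to cytochrome c, was at 128 and 124 CPM in CRN/PPN2 +KOH, 164 and 142 CPM in CRN/PPN2 YPD, 29.8 and 27.0 CPM in CRN +KOH and 80.0 and 91.0 CPM in CRN YPD. Of 3 genes for ATP synthase inhibitors and their stabilizing factors, STF1 and STF2 rose with KOH in CRN/PPN2 (log2 1.07 and 1.40) and INH1 was not called (-0.58). Of 9 complex III assembly genes 1 was higher and 5 lower with KOH in CRN/PPN2, of 30 tested complex IV assembly genes 5 and 11, of 13 ATP synthase assembly genes 2 and 3, and of 5 complex II assembly genes 3 and 0. Between the strains with KOH, 2 of 10 heme synthesis and attachment genes stood above and 7 below CRN, with the gene HEM2 at 63.9 and 74.7 CPM in CRN/PPN2 +KOH against 162 and 186 CPM in CRN +KOH. Of 11 coenzyme Q genes 2 were higher and 1 lower. Among 6 tested subunit, paralog and supercomplex genes outside the members, 5 were higher and 1 lower (RCF2, -1.03) in the same comparison. Of these 5, SHH3 passed the filter on low counts through the CRN/PPN2 +KOH libraries alone, where it was high, and had to differ. Of 7 carriers of nucleotides, phosphate and the outer membrane 1 was higher and 3 lower with KOH in CRN/PPN2, of 7 tested hypoxic genes repressed by Rox1 4 and 0, and of 8 tested glucose-repressed marker genes 4 and 1. With KOH in CRN, 4 of the 7 hypoxic genes were higher and 1 lower, against 7.53 and 7.61% of all tested genes. Between the strains with KOH 2 of them stood higher and 3 lower in CRN/PPN2. In CRN the glucose-repressed list had 1 gene higher with KOH, the alcohol dehydrogenase gene ADH2, at 14.3 and 18.6 CPM in CRN +KOH against 0.909 and 1.99 CPM in CRN YPD. ADH2 passed the filter on low counts through the +KOH libraries alone, so these levels are a description, and MLS1 of the same list passed through CRN/PPN2 +KOH alone. TIR1 of the Rox1 list passed through +KOH libraries alone. Background shares for these comparisons are those given above, 29.2 and 25.5% for KOH in CRN/PPN2 and 30.8 and 25.9% between the strains with KOH.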

How the data were processed

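RNA from 8 yeast libraries (4 groups, 2 each) had been poly(A)-selected, made into directional NEBNext libraries and sequenced on a NextSeq 500. The authors aligned reads to R64-1-1 with STAR 2.7.6a, and the deposited values are gene counts with Ensembl gene models, taken as raw counts of 7127 genes; which strand column STAR counted is not given in the sources used here. Total counts were 796548 to 5004823, and with fewer counts low genes are less precise.

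The 41 genes were matched by name and the lists of other genes by symbol. Members and lists were chosen with earlier results of these data known. A gene was kept when 2 or more libraries reached 10 CPM (5430 genes). One model of all 8 libraries, with group and replicate number as terms, was fitted in edgeR 4.0.16 (TMM factors, quasi-likelihood F test, R 4.3.3), with Benjamini-Hochberg adjustment over all tested genes. An approximate SE was had by dividing the absolute log2 fold change by root F. The replicate number is the batch of preparation and sequencing by the study's methods, and differences between replicates correlated between groups with r of 0.0926 to 0.467. Isoform ratios used counts plus 0.5 and exact permutation tests. Motifs and coding sequences were read from RefSeq's R64 assembly with Biopython 1.88, and coordinates are those of its genes.

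Values are given in full for HAP4, CYC1, CYC7, COX5A, COX5B and up to 4 called members of each complex with the largest log2 fold change in any comparison, and for up to 3 called genes of each other list with the smallest adjusted p. Genes named outside this rule were chosen after their values were seen. Alternatives were other scaling factors, filters, no replicate block, ComBat-seq (sva 3.50.0), DESeq2 1.42.0, thinning to the smallest library, fits of only the 4 libraries compared, and fits that drop 1 library in turn. A coding length offset, a fit without both CRN/PPN2 +KOH libraries and permutations within strains or within strains and batches were chosen after seeing the data. The procedure was tested on simulated data.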

Additional observations from a re-analysis of the deposited data

Results flagged for a closer look

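The interaction test of the edgeR fit called 18 members, 43.9% of them, a share near the 39.7% of all tested genes. For these 18 the log2 difference between KOH and YPD itself differed between CRN/PPN2 and CRN. It was larger in CRN/PPN2 than in CRN for CYC7 by 2.51, for the external NADH dehydrogenase genes NDE2 and NDE1 by 1.83 and 1.05, of which NDE2 passed the filter on low counts only through the CRN/PPN2 libraries and gives no support, and for the complex III genes QCR10, QCR7, QCR9 and QCR8 by 1.32, 0.70, 0.66 and 0.53. In complex IV it was larger for COX7 by 1.29, COX5B by 0.87 and COX6 by 0.52. In complex V it was larger for TIM11 by 1.30, ATP15 by 1.23, ATP7 by 0.80 and ATP20 by 0.67. It was lower in CRN/PPN2 for COX5A (-0.96), ATP3 (-0.83), COR1 (-0.67) and NDI1 (-0.64). The interaction calls of NDE1, QCR10, CYC7, COX5A, COX5B, COX7, ATP15 and TIM11 held under every alternative tried. Those of QCR7, QCR8, QCR9, COX6 and ATP20 ended when coding length was taken out. CRN/PPN2 +KOH cells were also lysed differently and grown for another time than CRN +KOH cells, which cannot be told apart from the strain here.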

How the results depend on the processing

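Among single genes, 3397 values under alternatives stayed on the same side of the threshold in the same direction, 291 lost a call, 116 gained one, 16 without a test moved and 6 turned round. CYC1 between the strains with KOH was -0.16 without CRN/PPN2 +KOH replicate 1 and 0.94 without replicate 2. With the length offset KOH in CRN/PPN2 gave QCR9 -0.46, COX9 -0.52, COX12 -0.33, ATP17 -0.13 and ATP18 -0.41; the cause was not tested. In YPD between the strains, 353 genes and 1 member were called. The count was 556 genes and 6 members with ComBat-seq counts fitted without the block, 101 and 0 thinned, 736 and 5 from the 4 libraries alone, 812 and 6 without both CRN/PPN2 +KOH libraries, with 2 members unfiltered or with the length offset, and 98 to 815 genes and 0 to 6 members with 1 library left out. For KOH in CRN, 822 genes and 12 members were called. It was 530 and 7 with DESeq2, 327 and 4 thinned, 1722 and 21 from the 4 libraries alone, 1416 and 19 without both CRN/PPN2 +KOH libraries, 21 members with the length offset, and 204 to 1414 genes and 1 to 19 members with 1 library left out. With 1 library left out, members called were 17 to 29 in place of 26 between the strains with KOH, 17 to 29 in place of 27 for KOH in CRN/PPN2, and 11 to 23 in place of 18 for the interaction, and genes called 2397 to 2998, 2298 to 2894 and 1473 to 2317. Thinning left 1245 genes and 10 members for the interaction. Without the replicate block the calls were 132 genes in YPD between the strains and 362 genes and 4 members for KOH in CRN, and for KOH in CRN/PPN2 8 members higher and 13 lower. The interaction split of 14 higher and 4 lower members was 9 and 1 thinned, 10 and 5 with upper quartile factors, which moved the median of all genes by -0.11, and 9 and 4 with the length offset. The CYC1 to CYC7 difference of -2.16 was not called once adjusted over both pairs (exact permutation p = 0.0286, adjusted 0.0572). Exchanging libraries only within strains or within strains and batches gave larger unadjusted values (exact permutation p = 0.0556 and 0.125). The unadjusted p also rose without any single YPD library, and it stayed the same without any single KOH library. The CYC1 to CYC7 difference ranged from -2.69 to -1.56 and that of COX5A to COX5B from -0.96 to -0.26 with 1 library left out. A lone library was assumed to vary like the other groups. Only 2 libraries a group and the low depth of CRN/PPN2 +KOH limit what low genes can show.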
